A study of Zea mays with 24 samples.

Results

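The transcripts described here are the kinases, phosphatases, receptors and other signalling products among the putative leaf-specific transcripts of maize. They comprise 40 of the 919 probes that the study lists as expressed in juvenile leaves only. A probe was taken when the product description of its EST contig (a sequence assembled from expressed sequence tags) held one of the words kinase, phosphatase, receptor, calmodulin, calcium, GTP-binding or GTPase. Descriptions with the words chloroplast, photosystem, ferredoxin or transcription were left out. Of the 21939 probes on the array, 7900 have a value, and these include 37 of the 40 probes, each with a value on all 24 arrays. Pyruvate kinase (TC271786), the GTP-binding protein typA (TC251613) and a Sac domain inositol phosphatase (TC274137) are the 3 without one. The list was chosen from hybridization signals of these same samples: a transcript had to be detected in the leaf of A619, of ND101/W23 and of W23. Its restriction to leaf is therefore not a result, and signal intensities are not analysed here. What the rule did not use is the size of the contrast between lines, although it comes from the same arrays. By asking for detection in every line it left out transcripts undetected in the leaf of any of them. This may limit the leaf ratios that the listed transcripts can have.

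A619 here is a derivative of the inbred line of that name. ND101/W23 is the F1 hybrid that W23 pollen gave on ND101 plants, so that its genome carries 1 set of W23 chromosomes. W23 is an inbred that carries the bz2 mutation, which blocks anthocyanin accumulation, and it supplied the common RNA against which both lines were hybridized. Of the 36 RNA samples, 12 belong to each genotype. They came from field-grown plants without further treatment, and the tissues were fully expanded juvenile leaf, anthers of 1 mm and of 1.5 mm length, and mature pollen. Anther samples pooled many anthers, typically of a single tassel for the 1 mm stage, and a pollen sample pooled the pollen of 1 individual. Each of the 8 comparisons with W23 has 3 arrays of 2 colours, and A619 and ND101/W23 arrays that bear an equal replicate number carry the same W23 sample. Every value is the log2 ratio of the line over W23. The direction is likely rather than certain for A619, because the sources disagree on the dyes. The tissue labels cannot be checked against markers in ratios, which hold no level.

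Protein kinases transfer phosphate to proteins and protein phosphatases remove it, and the state of the target protein carries the signal. Calcium, small GTP-binding proteins and membrane receptors act upstream or beside them. In leaves such proteins connect light, carbon status and hormones to photosynthesis and stomatal behaviour. The word kinase also names enzymes that phosphorylate small molecules, and the list mixes both: 11 protein kinases, 4 protein phosphatases, 8 receptors and other signalling products, 14 enzymes of metabolism, and 3 products whose names merely contain a word of the rule. Product names stand for similarity of sequence, often over part of a protein. The probes of 17 of the 40 transcripts (42.5%) run in reverse on their contig, beside 304 of 879 other leaf-specific probes (34.6%). Whether such a contig is itself in the sense direction was not examined, so these probes may read either strand. They are named as reverse probes where their ratios are given array by array.

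In juvenile leaf, a calcium-dependent protein kinase was about 3-fold higher in A619 than in W23, and cytosolic fructose-1,6-bisphosphatase was lower. A protein phosphatase 2C-like transcript and choline kinase were higher in both lines. A secretory acid phosphatase and a small GTP-binding protein were lower in A619 and higher in ND101/W23. By limma, 12 of the 37 transcripts differed from W23 in A619 leaf (4 higher, 8 lower), at an adjusted p under 0.05 over all probes and with 3 ratios of the same sign. This is 32.4% of them, beside 41.9% of all 7900 probes tested and 32.2% of the 826 other leaf-specific probes with a value. For the directions, 10.8% were higher and 21.6% lower, beside 23.9% and 18.0% of all probes. In ND101/W23 leaf 5 differed (4 higher, 1 lower), or 13.5%, beside 10.3% of all probes and 9.20% of the other leaf-specific probes. The 4 higher transcripts are 10.8%, beside 5.85% of all probes, and the single lower one is 2.70%, beside 4.41%. In total 13 of the 37 were called in at least 1 line and 4 in both. Over all probes 45.6% were called in at least 1 line and 6.53% in both, beside 35.1% and 10.8% of the 37. Both lines are set against the same W23 samples and share an estimate of spread. Calls in both lines are therefore not independent. Rank Products, the test the study used, called 0 of the 37 in A619 leaf, beside 4.12% of all probes, and 1 in ND101/W23 leaf, beside 2.49%. With arrays scaled to the same MAD (median absolute deviation), limma called 11 of the 37 in ND101/W23 leaf. The share of all probes called with this scaling was not counted. If the direction of A619 were turned, 8 of its 12 calls would be higher and 4 lower.

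**Figure D1:**
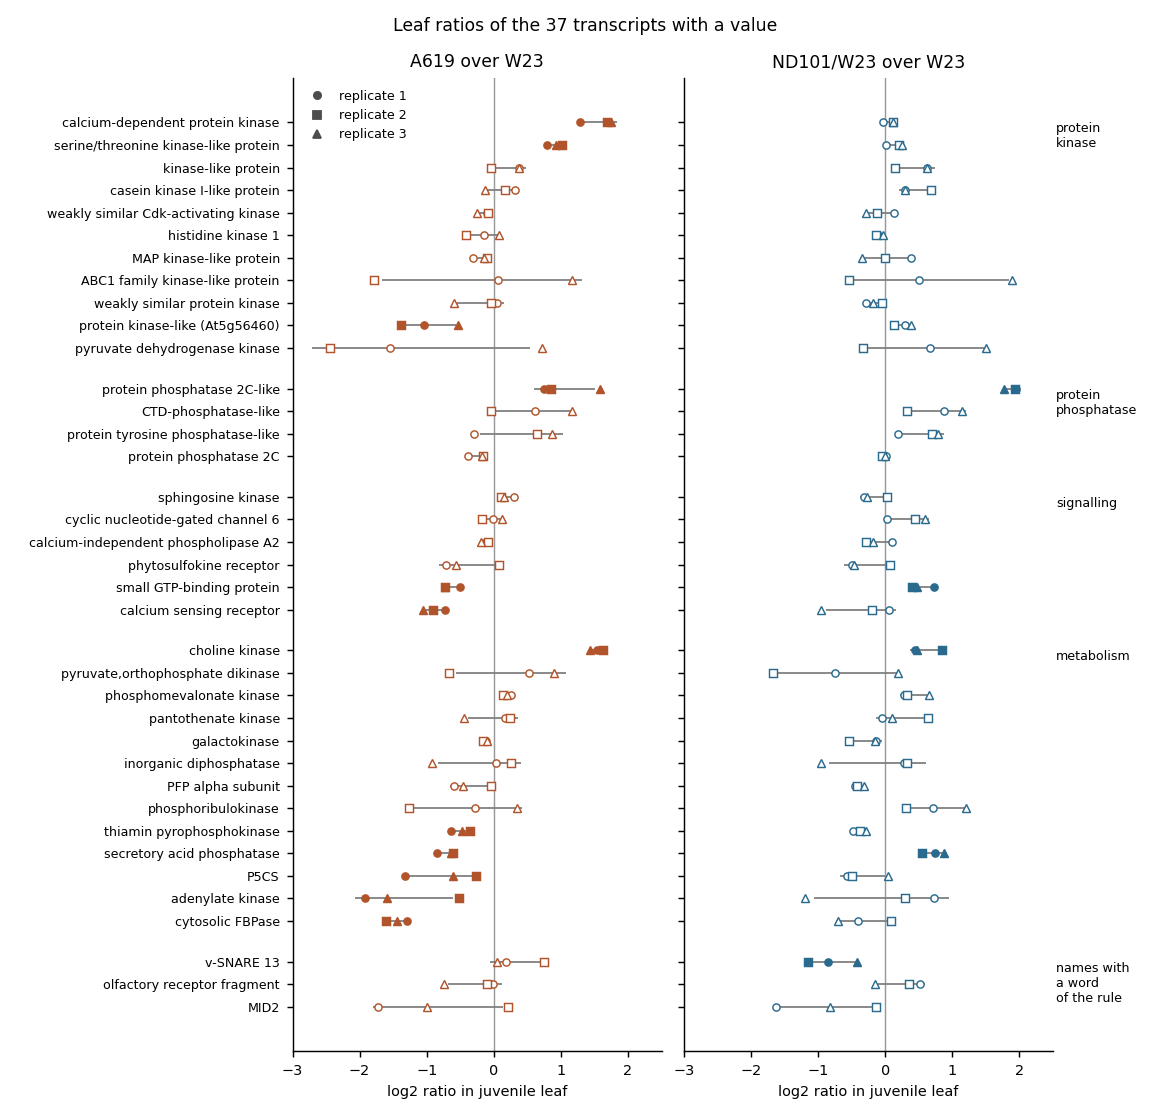
Log2 ratio to W23 in juvenile leaf (x axis) of the 37 transcripts with a value, grouped by role, in A619 (left) and ND101/W23 (right). Symbols mark the 3 arrays by replicate number, filled where limma called the transcript, and grey bars are the mean ± SD of the 3 arrays. In A619 the highest mean is 1.58 and the lowest -1.45, and in ND101/W23 the highest is 1.89 and the lowest -0.86.

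The median log2 ratio of the 37 transcripts was -0.18 in A619 leaf, with 12 means above 0 and 25 below. The other leaf-specific probes had a median of -0.19 there and all probes a median of -0.03. In ND101/W23 leaf the median was 0.01, with 19 means above 0 and 18 below, beside -0.10 for the other leaf-specific probes and -0.01 for all probes. Single leaf arrays had medians of -0.11, -0.09 and -0.14 for A619, beside 0.10, 0.09 and 0.04 for ND101/W23. The sizes of the ratios were alike in both lines, with a median of 0.36 in A619 and 0.35 in ND101/W23. By size all probes had a median of 0.41 in A619 and 0.25 in ND101/W23.

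On leaf replicate 3 the 330 measured transcripts that the study lists as specific to pollen had a median of -0.46 in A619 and -0.40 in ND101/W23. On the replicates 1 and 2 these medians lay between -0.08 and -0.01 in both lines. Replicate 3 is also the array with swapped dyes in leaf, and it shares its W23 sample between the lines. Without it, 10 of the 12 calls in A619 leaf and 1 of the 5 in ND101/W23 leaf were made again. The part of replicate 3 in the leaf results was not tested beyond these fits.

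Among the protein kinases, 3 of 11 differed from W23 in A619 leaf, where 41.9% of all probes did, and 0 of 11 in ND101/W23 leaf, where 10.3% did. The calcium-dependent protein kinase (TC273592), of a plant family in which a calmodulin-like domain switches on the kinase, had log2 ratios of 1.29, 1.69 and 1.75 in A619 leaf. The hybrid gave -0.03, 0.11 and 0.11 in leaf, and the 2 sets of arrays did not overlap. Its mean in A619 was 1.58 ± 0.25 (SD, n = 3 arrays; limma adjusted p = 0.000227 with a standard error of 0.13), which is a 2.98-fold higher level than in W23. It was the highest mean of the 37 in A619 leaf. The serine/threonine kinase-like transcript (TC264065) gave 0.79, 1.01 and 0.92 in A619 leaf and 0.01, 0.20 and 0.25 in ND101/W23 leaf. Its mean in A619 was 0.91 ± 0.11 (SD, n = 3 arrays; limma adjusted p = 0.000983 with a standard error of 0.11). The third call went the other way. The transcript similar to the Arabidopsis kinase At5g56460 (TC255723) had ratios of -1.04, -1.39 and -0.54 in A619 leaf, where all arrays were below 0. The ratios of ND101/W23 leaf were 0.29, 0.13 and 0.39, all above 0. Its mean of -0.99 ± 0.43 in A619 passed the test (limma adjusted p = 0.00372, standard error 0.17), and its mean of 0.27 ± 0.13 in ND101/W23 did not (adjusted p = 0.343). The call in A619 was lost without replicate 1 (adjusted p = 0.069).

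Some kinases had wide ratios without a call. Pyruvate dehydrogenase kinase isoform 2 (TC250399) inactivates the mitochondrial pyruvate dehydrogenase complex by phosphorylation. It had the lowest mean of the protein kinases in A619 leaf, -1.09 ± 1.63, from ratios of -1.54, -2.44 and 0.72. The ND101/W23 leaf arrays gave 0.67, -0.33 and 1.50. The ABC1 family kinase-like transcript (TC257927) gave 0.06, -1.78 and 1.17 in A619 leaf. Its ratios in ND101/W23 leaf were 0.51, -0.54 and 1.89, with the highest mean of the group there, 0.62 ± 1.22. In both transcripts and both lines replicate 2 was lowest and replicate 3 highest, and the lines share the W23 sample of each replicate. Without replicate 3, pyruvate dehydrogenase kinase was called in A619 leaf at a mean of -1.99 (limma adjusted p = 0.00699). The lowest kinase mean in ND101/W23 leaf was -0.17, of a transcript weakly similar to a protein kinase (TC270664, a reverse probe; -0.29, -0.05 and -0.18). The remaining kinases (a casein kinase I-like, a MAP kinase-like, a Cdk-activating kinase-like, histidine kinase 1 and the kinase-like transcript TC264684) had means between -0.18 and 0.23 in A619 leaf. Their means in ND101/W23 leaf lay between -0.09 and 0.47, and none was called in leaf in either line.

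Of the 4 protein phosphatases, 1 differed from W23 in leaf, and it did so in both lines, beside 41.9% of all probes in A619 and 10.3% in ND101/W23. The protein phosphatase 2C-like transcript (TC260115, a reverse probe) belongs to a class that in Arabidopsis includes negative regulators of abscisic acid signalling. Its log2 ratios were 0.74, 0.85 and 1.58 in A619 leaf and 1.95, 1.94 and 1.77 in ND101/W23 leaf, with every array of the hybrid above every array of A619. The means were 1.06 ± 0.46 in A619 (SD, n = 3 arrays; limma adjusted p = 0.00321 with a standard error of 0.18) and 1.89 ± 0.10 in ND101/W23 (adjusted p = 0.00767). The mean in ND101/W23 is the highest of the 37 in either line. A second transcript of the class, protein phosphatase 2C (TC251537, a reverse probe), had the lowest phosphatase mean in both lines. Its ratios were -0.39, -0.16 and -0.17 in A619 leaf and 0.01, -0.05 and 0.00 in ND101/W23 leaf, and it was not called in either. The CTD-phosphatase-like transcript (TC272055), similar to enzymes that dephosphorylate the tail of RNA polymerase II, had 0.62, -0.05 and 1.17 in A619 leaf. For ND101/W23 leaf the ratios were 0.87, 0.32 and 1.15, again with replicate 2 lowest and replicate 3 highest, and with no call. The protein tyrosine phosphatase-like transcript had means of 0.41 ± 0.62 in A619 leaf and 0.56 ± 0.32 in ND101/W23 leaf, neither called.

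Of the 6 receptors and other signalling products with a value, 2 were lower in A619 leaf, and 1 of these was higher in ND101/W23 leaf, beside 18.0% of all probes lower in A619 and 5.85% higher in ND101/W23. The small GTP-binding protein (TC247949) is a homologue of a product described as ethylene-responsive. Proteins of its kind switch between a GTP-bound and a GDP-bound form. Its log2 ratios were -0.50, -0.73 and -0.73 in A619 leaf, against 0.72, 0.40 and 0.48 in ND101/W23 leaf. The signs were opposite on every pair of arrays with a shared W23 sample. Both means passed the test: -0.65 ± 0.13 in A619 (SD, n = 3 arrays; limma adjusted p = 0.00495 with a standard error of 0.12) and 0.53 ± 0.17 in ND101/W23 (adjusted p = 0.0394). The extracellular calcium sensing receptor (TC264163, a reverse probe) is known from Arabidopsis, where it sits in chloroplast membranes and takes part in the closing of stomata. It had ratios of -0.73, -0.90 and -1.05 in A619 leaf, with a mean of -0.89 ± 0.16 (limma adjusted p = 0.0105, standard error 0.20). The ND101/W23 leaf ratios were 0.06, -0.20 and -0.95, a spread that overlapped with A619, and this lowest mean of the group there, -0.36 ± 0.52, was not called. The call in A619 was lost without replicate 1 or 2 (adjusted p = 0.0545 and 0.0598). Sphingosine kinase (TC262254, a reverse probe), which makes the lipid messenger sphingosine-1-phosphate, had the highest mean of the group in A619 leaf (0.30, 0.11 and 0.15) and no call. The phytosulfokine receptor, a calcium-independent phospholipase A2 and cyclic nucleotide-gated channel 6 were not called, with means between -0.40 and -0.03 in A619 leaf and between -0.30 and 0.35 in ND101/W23 leaf.

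The enzymes of metabolism held 6 of the 12 A619 calls among 13 measured (1 higher, 5 lower), and 2 of the 5 ND101/W23 calls (both higher). Over all probes 41.9% were called in A619 leaf and 10.3% in ND101/W23 leaf. Choline kinase (TC261629), which opens the pathway to phosphatidylcholine, was the higher one in A619. Its log2 ratios were 1.53, 1.63 and 1.43 in A619 leaf and 0.45, 0.85 and 0.47 in ND101/W23 leaf. It averaged 1.53 ± 0.10 in A619 (SD, n = 3 arrays; limma adjusted p = 0.000231 with a standard error of 0.13) and 0.59 ± 0.23 in ND101/W23 (adjusted p = 0.0341). Cytosolic fructose-1,6-bisphosphatase (TC249796, a reverse probe) catalyses a committed step from triose phosphates to sucrose outside the chloroplast. It was the lowest mean of the 37 in A619 leaf, with ratios of -1.30, -1.61 and -1.45. Leaf arrays of the hybrid gave -0.40, 0.09 and -0.70, all above those of A619. The mean in A619 was -1.45 ± 0.16 (limma adjusted p = 0.000694, standard error 0.17). Secretory acid phosphatase (TC273333) releases phosphate from organic compounds outside the cell. It had -0.84, -0.61 and -0.64 in A619 leaf, against 0.74, 0.55 and 0.87 in ND101/W23 leaf. Its means of -0.70 ± 0.13 in A619 (limma adjusted p = 0.00354) and 0.72 ± 0.16 in ND101/W23 (adjusted p = 0.0184) thus passed the test in opposite directions. Without replicate 1 the call of the acid phosphatase in A619 was lost (adjusted p = 0.0749).

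A further 3 enzymes were lower in A619 leaf. The adenylate kinase transcript (TC271238, a reverse probe) is named for a match to a small part of an archaeal enzyme, so that its identity is weak. It had ratios of -1.92, -0.52 and -1.59 in A619 leaf and 0.73, 0.30 and -1.19 in ND101/W23 leaf, and the wide spread left its mean in A619 at -1.34 ± 0.73 (limma adjusted p = 0.033). P5CS (TC260797), which makes the precursor of proline and holds a glutamate kinase domain, had -1.32, -0.27 and -0.61 in A619 leaf (mean -0.73 ± 0.54, adjusted p = 0.0341). Leaf of ND101/W23 gave -0.57, -0.49 and 0.04. Thiamin pyrophosphokinase (TC251803, a reverse probe), which forms the cofactor thiamin pyrophosphate, had -0.64, -0.35 and -0.48 in A619 leaf (mean -0.49 ± 0.15, adjusted p = 0.0132). Its ratios in ND101/W23 leaf were also all below 0, at -0.48, -0.38 and -0.29, without passing the test (adjusted p = 0.0816). The calls of P5CS and thiamin pyrophosphokinase in A619 leaf were lost without replicate 3, at an adjusted p of 0.0666 and 0.0545 from limma. Without replicate 1 they were lost as well, P5CS at a mean of -0.44 (adjusted p = 0.235) and thiamin pyrophosphokinase at -0.42 (adjusted p = 0.155), and so was adenylate kinase at -1.06 (adjusted p = 0.188).

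The ratios of 2 enzymes of photosynthetic carbon metabolism spread widely. Phosphoribulokinase (TC263949), which regenerates the carbon dioxide acceptor of the Calvin cycle, had -0.28, -1.27 and 0.35 in A619 leaf. The same enzyme had 0.71, 0.31 and 1.20 in ND101/W23 leaf, the highest mean of the metabolic enzymes there (0.74 ± 0.45). Pyruvate,orthophosphate dikinase (AW225169.1) regenerates the primary carbon acceptor of C4 photosynthesis and had the lowest mean of the metabolic enzymes in ND101/W23 leaf. Its ratios were 0.53, -0.67 and 0.90 in A619 leaf and -0.75, -1.67 and 0.19 in ND101/W23 leaf. In both enzymes and both lines replicate 2 was lowest and replicate 3 highest, and none of the means was called. Of 16 measured leaf-specific transcripts found by words for C4, Calvin cycle and sucrose enzymes, 0 were higher and 6 lower in A619 leaf, with a median of -0.35. The 6 are 37.5% of them, beside 41.9% of all probes and 32.2% of the other leaf-specific probes called in either direction. Called lower were 18.0% of all probes and 176 of the 826 other leaf-specific probes, and no test compares these shares. Of the same transcripts 0 were higher and 1 lower in ND101/W23 leaf, beside 5.85% and 4.41% of all probes. Their median there was -0.28, and 4 of these 16 belong to the 37 transcripts described here. The words were chosen with earlier results of these data known, so the counts are not independent evidence. The other metabolic enzymes (pantothenate kinase, phosphomevalonate kinase, galactokinase, inorganic diphosphatase and the alpha subunit of pyrophosphate-dependent phosphofructokinase) had means between -0.36 and 0.19 in A619 leaf and between -0.39 and 0.42 in ND101/W23 leaf, with no call.

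The 3 products with only a word of the rule in their names included 1 call in leaf, lower in ND101/W23. Among all probes 10.3% were called there and 4.41% called lower. In A619 leaf 0 of the 3 were called, beside 41.9% of all probes. The transcript similar to v-SNARE 13 (TC249924) entered the list through the words soluble NSF attachment protein receptor. A v-SNARE sits on a vesicle and pairs with partners on the target membrane before fusion. Its log2 ratios were 0.18, 0.74 and 0.04 in A619 leaf, against -0.85, -1.15 and -0.42 in ND101/W23 leaf, and the lines did not overlap. The mean of -0.81 ± 0.37 in ND101/W23 was called (limma adjusted p = 0.0437, standard error 0.19). It was not called in the fit that allows a correlation between arrays of the same replicate number (limma adjusted p = 0.079). The transcripts matched to small parts of the yeast protein MID2 (TC261369, a reverse probe) and of an olfactory receptor (TC256952, a reverse probe) were not called in either line. MID2 had the lowest mean of the 37 in ND101/W23 leaf, with -1.62, -0.14 and -0.82, and in A619 leaf it had -1.72, 0.21 and -0.99. The olfactory receptor fragment had -0.01, -0.10 and -0.75 in A619 leaf and 0.52, 0.36 and -0.15 in ND101/W23 leaf, the highest mean of these 3 there.

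The ratios of the 2 lines were then set against each other, since a call in a single line does not show that the lines differ. In juvenile leaf 8 of the 37 differed between A619 and ND101/W23 by the same threshold (4 higher in A619, 4 lower). This is 21.6%, beside 21.0% of all probes and 14.8% of the other leaf-specific probes. The 4 higher and the 4 lower transcripts are 10.8% each, beside 11.8% of all probes for higher and 9.16% for lower. With the direction of A619 turned, 14 would differ (7 higher, 7 lower), and the share of all probes that would was not counted. The calcium-dependent protein kinase had the largest positive difference, 1.51 (1.32, 1.58 and 1.64 by replicate, limma adjusted p = 0.00294, standard error 0.18). The differences of v-SNARE 13 were 1.03, 1.89 and 0.46 (mean 1.13, adjusted p = 0.0274). Choline kinase followed with 1.08, 0.78 and 0.96 (mean 0.94, adjusted p = 0.0125), and the serine/threonine kinase-like transcript with 0.78, 0.81 and 0.67 (mean 0.75, adjusted p = 0.0185). These 4 were higher in A619 in every replicate.

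The 4 transcripts lower in A619 than in ND101/W23 were secretory acid phosphatase, the At5g56460-like kinase, the small GTP-binding protein and cytosolic fructose-1,6-bisphosphatase. Secretory acid phosphatase differed by -1.58, -1.16 and -1.51 (mean -1.42, limma adjusted p = 0.00283, standard error 0.17). The small GTP-binding protein had the narrowest spread of the 8, with -1.22, -1.13 and -1.21 (mean -1.19 ± 0.05, adjusted p = 0.00499). The At5g56460-like kinase differed by -1.26 (adjusted p = 0.0129) and cytosolic fructose-1,6-bisphosphatase by -1.12 (adjusted p = 0.0178). When arrays with the same W23 sample were paired by a replicate block, 14 of the 37 differed (5 higher, 9 lower), all 8 of the above among them. In that fit 33.1% of all probes were called, beside 21.0% without the block. The 6 that were added were pyruvate,orthophosphate dikinase (1.00, limma adjusted p = 0.00858), phosphoribulokinase (-1.14, adjusted p = 0.0084), pyruvate dehydrogenase kinase (-1.70, adjusted p = 0.0106), the ABC1 kinase-like transcript (-0.80, adjusted p = 0.0264), the olfactory receptor fragment (-0.53, adjusted p = 0.0333) and the protein phosphatase 2C-like transcript (-0.83, adjusted p = 0.0433). In the unpaired fit the largest mean difference of all, that of pyruvate dehydrogenase kinase, had a standard error of 0.83, beside 0.31 in the paired fit.

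**Figure D2:**
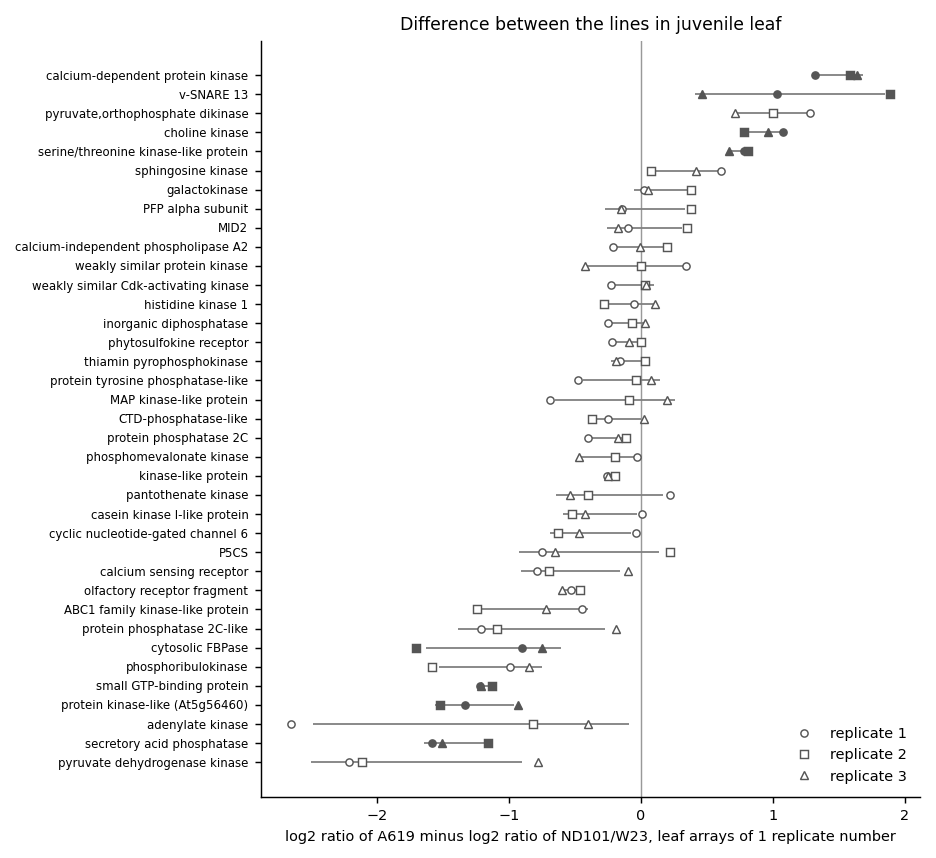
Log2 ratio of A619 minus log2 ratio of ND101/W23 in juvenile leaf (x axis) for the 37 transcripts, ordered by mean. Symbols are the differences between the arrays of both lines that share a W23 sample, filled where limma called the difference without the replicate block, and grey bars are the mean ± SD over the 3 replicates. The small GTP-binding protein lies between -1.22 and -1.13 in all 3 replicates, and pyruvate dehydrogenase kinase between -2.21 and -0.78.

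The count of leaf differences changed with each replicate left out. How many of all probes were called in these fits was not counted. Without replicate 3, 6 of the 8 differences between the lines were called, and 2 others were added: pyruvate dehydrogenase kinase (-2.16, limma adjusted p = 0.0317) and the protein phosphatase 2C-like transcript (-1.15, adjusted p = 0.0207). Without replicate 2, 4 of the 8 were called, and without replicate 1 none. In the fit without replicate 1 the calcium-dependent protein kinase still differed by 1.61, at an adjusted p of 0.0536 from limma. Of the 5 calls in ND101/W23 leaf against W23, 0 were made without replicate 1 and 1 was made without replicate 2, beside 6 and 11 of 12 in A619 leaf.

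Outside the leaf the study lists these transcripts as undetected, so that ratios in anthers and pollen concern signals it placed below its detection rule in at least part of the lines. Calls were fewer there than in leaf. The list was chosen by lack of detection in these tissues, so the other leaf-specific probes, chosen likewise, are set beside it too. In 1.5 mm anthers of A619, 6 of the 37 differed from W23 (1 higher, 5 lower). This is 16.2%, beside 20.3% of all probes and 12.6% of the other leaf-specific probes. Rank Products called 0 of these 37, beside 3.71% of all probes. By direction 2.70% were higher and 13.5% lower, beside 8.65% and 11.6% of all probes. In ND101/W23, 2 differed in 1 mm anthers, both lower (5.41%, beside 7.05% of all probes called and 4.58% called lower). In its 1.5 mm anthers 1 differed, also lower (2.70%, beside 3.96% of all probes called and 2.14% called lower). Of the other leaf-specific probes, 3.87% were called in 1 mm anthers of ND101/W23 and 3.03% in its 1.5 mm anthers. In 1 mm anthers of A619 and in the pollen of either line limma called 0 of the 37, beside 4.14%, 1.53% and 0.937% of all probes. Of the other leaf-specific probes it called 1.69%, 0.121% and 0.363%. At an unadjusted p under 0.05 there were 2 in 1 mm anthers of A619, 1 in the pollen of A619 and 2 in the pollen of ND101/W23, and Rank Products called 0 in each of these, beside 3.66%, 1.64% and 1.42% of all probes. In ND101/W23 it called 1 of the 37 in 1 mm anthers and 1 in 1.5 mm anthers, beside 1.51% and 1.73% of all probes.

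**Figure D3:**
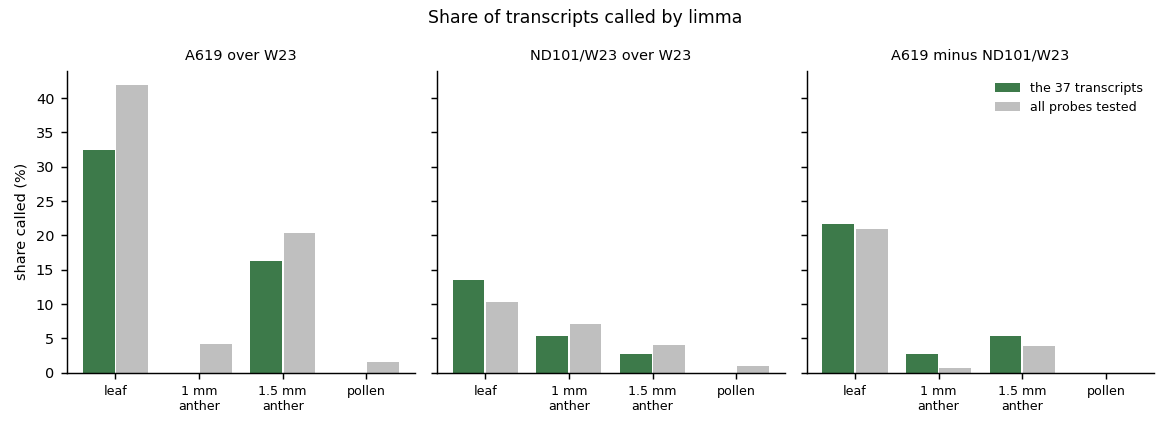
Share of transcripts called by limma (y axis, percent) in each tissue, for A619 over W23, ND101/W23 over W23 and A619 minus ND101/W23. Green bars are the 37 transcripts and grey bars all probes tested. In juvenile leaf the green bars stand at 32.4%, 13.5% and 21.6%, beside grey bars at 41.9%, 10.3% and 21.0%. The other leaf-specific probes are not drawn, and their shares in juvenile leaf were 32.2%, 9.20% and 14.8%.

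The widest ratios of the whole list lay in the anthers of ND101/W23, in v-SNARE 13. Its log2 ratios in 1 mm anthers were 0.16, 0.27 and -0.67 in A619, against -2.26, -4.20 and -3.88 in ND101/W23. In 1.5 mm anthers they were 0.20, -0.74 and -0.27 in A619, against -3.34, -3.27 and -2.80 in ND101/W23. The arrays of the hybrid thus lay far below those of A619 at both stages. The means in ND101/W23 were -3.45 ± 1.04 (SD, n = 3 arrays; limma adjusted p = 0.00542 with a standard error of 0.36) and -3.14 ± 0.29 (adjusted p = 0.0009). No fold is given, because the signals in anthers may not stand above background. Between the lines v-SNARE 13 differed by 3.37 at 1 mm (limma adjusted p = 0.038) and by 2.87 at 1.5 mm (adjusted p = 0.00501). Its pollen ratios were 0.05, -0.16 and 0.06 in A619, against -0.87, -0.48 and -1.45 in ND101/W23, all below 0 in the hybrid but not called (adjusted p = 0.09). In ND101/W23 all 12 of its ratios were therefore below 0.

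The calcium-dependent protein kinase, which was higher in A619 leaf, was lower in the 1 mm anthers of ND101/W23. There its ratios were -0.54, -0.68 and -0.65 (mean -0.62 ± 0.07, limma adjusted p = 0.0378), against -0.34, -0.40 and 0.03 in 1 mm anthers of A619. The pollen-specific transcripts had a median of 0.44 on replicate 2 of these arrays of ND101/W23, beside 0.10 and 0.02 on the replicates 1 and 3. Without replicate 2 the kinase had a mean of -0.60 (limma adjusted p = 0.161) and v-SNARE 13 a mean of -3.07 (adjusted p = 0.0528). The call of the kinase was also lost without replicate 1 or 3 (adjusted p = 0.12 and 0.182), and that of v-SNARE 13 without replicate 3 (adjusted p = 0.136). The difference between the lines in v-SNARE 13 at 1 mm was lost without replicate 2 or 3 (adjusted p = 0.282 and 0.317). In 1.5 mm anthers v-SNARE 13 stayed called in ND101/W23 without replicate 1 or 2 and not without replicate 3 (adjusted p = 0.0658). The part of that array in these calls was not tested further.

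In 1.5 mm anthers of A619, 3 of the 6 calls were also called in A619 leaf, beside 48.8% of the 1603 probes called in these anthers. The small GTP-binding protein had ratios of -1.14, -1.02 and -0.93 in A619, against 0.00, -0.23 and 0.21 in ND101/W23 (mean in A619 -1.03 ± 0.11, limma adjusted p = 0.00296). The difference between the lines, -1.02, was called as well (adjusted p = 0.0287). The At5g56460-like kinase gave -0.84, -0.60 and -0.45 in A619 (adjusted p = 0.0177), and the serine/threonine kinase-like transcript gave 0.80, 0.81 and 0.71 (adjusted p = 0.0102). All 3 went the same way as in A619 leaf. The kinase-like transcript TC264684 had -0.98, -0.66 and -1.37 (adjusted p = 0.00982), galactokinase (AW562690.1), which phosphorylates galactose, -0.54, -0.42 and -0.70 (adjusted p = 0.0284), and the CTD-phosphatase-like transcript -0.43, -0.43 and -0.49 (adjusted p = 0.0235). Without replicate 1 and without replicate 3, 0 of these 6 were called, and without replicate 2 there were 4. In the paired fit 5 of the 37 differed between the lines in 1.5 mm anthers, with 10.3% of all probes, beside 2 in the unpaired fit (5.41%, with 3.84% of all probes). Of these 2, both lost without replicate 1 or 3, 1 was higher in A619 and 1 lower (2.70% each, beside 2.09% and 1.75% of all probes). The 3 added were phosphomevalonate kinase (-1.09, limma adjusted p = 0.0332), the kinase-like TC264684 (-0.74, adjusted p = 0.0384) and the casein kinase I-like transcript (-0.72, adjusted p = 0.0404). In 1 mm anthers v-SNARE 13 was the single difference between the lines and was higher in A619 (2.70%, beside 0.734% of all probes called and 0.456% called higher). Of the other leaf-specific probes, 0.484% differed between the lines in 1 mm anthers and 1.94% in 1.5 mm anthers, both in the unpaired fit. In pollen limma called 0 of the 37 and 0 of all probes, with 1 of the 37 at an unadjusted p under 0.05.

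**Figure D4:**
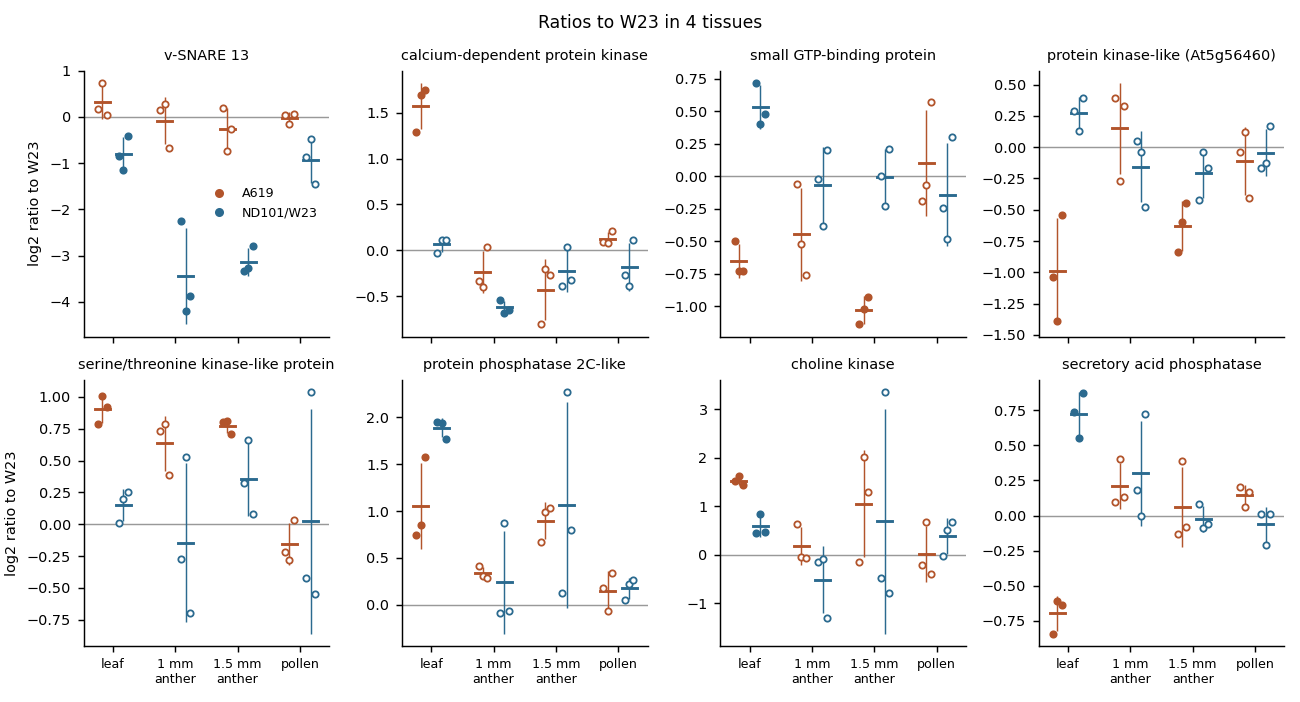
Log2 ratio to W23 (y axis, a scale of its own in each panel) of 8 transcripts in juvenile leaf, 1 mm anthers, 1.5 mm anthers and mature pollen, for A619 (brown, left) and ND101/W23 (blue, right). Points are the 3 arrays, filled where limma called the transcript, with the mean as a short line and the SD as a bar. v-SNARE 13 stands between -4.20 and -2.26 in 1 mm anthers of ND101/W23, and secretory acid phosphatase has leaf ratios of -0.84 to -0.61 in A619 and 0.55 to 0.87 in ND101/W23.

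The spread between replicates bounds what 3 arrays can show. The SD of the 3 leaf ratios ran between 0.03 and 1.63 in A619, with a median of 0.25, and between 0.03 and 1.22 in ND101/W23, with a median of 0.28. Choline kinase in 1.5 mm anthers of ND101/W23 had the widest spread of any tissue, with -0.49, 3.36 and -0.80 (SD 2.32), and its ratios in A619 there were -0.15, 2.01 and 1.29. Replicate 2 was the highest in both lines there. By orientation, 22 forward probes gave 3 higher and 4 lower calls in A619 leaf and 15 reverse probes gave 1 higher and 4 lower. Over all probes 23.9% were higher and 18.0% lower there. The forward probes gave 3 higher and 1 lower in ND101/W23 leaf, and the reverse probes 1 higher and 0 lower, beside 5.85% and 4.41% of all probes. No test compares the orientations. The median leaf ratio was -0.02 for forward and -0.29 for reverse probes in A619, and 0.39 and -0.17 in ND101/W23.

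The words of the rule were also applied to the study's tables of other tissues. In A619 leaf, 3 of 14 such transcripts from the 1 mm anther table were higher and 1 lower, with a median of 0.47, beside 23.9% and 18.0% of all probes, and 2 of 3 from the 1.5 mm anther table were higher. Of 32 from the pollen table, 0 were higher and 4 lower in A619 leaf, with a median of -0.34. The whole pollen table had its lowest leaf median on replicate 3 in both lines, as given above. These lists had 0, 1 and 0 calls in ND101/W23 leaf, beside 10.3% of all probes. The 37 leaf-specific transcripts, with 4 higher and 8 lower in A619 leaf, differ from these lists in how they were chosen, and no test compares them.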

How the data were processed

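RNA of A619 or ND101/W23 was hybridized with RNA of W23 from the same tissue on 24 oligonucleotide arrays of 2 colours. The authors processed images with Agilent Feature Extraction, removed saturated spots and probes below thresholds from negative controls, normalized within arrays (rank-invariant probes, then loess) and scaled the triplicates to equal variance; probes came from MaizeGDB EST assemblies, and contig names from the TIGR Maize Gene Index, without a genome. The deposited log2 ratios of the authors were used as they stand: 7884 to 7900 values an array, with array medians between -0.04 and 0.04. Arrays of opposite dyes within a comparison had correlations of 0.108 to 0.79 over 16 pairs, and arrays of the same dyes 0.224 to 0.891 over 8 pairs, so swapped arrays had been turned already.

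The labels and the study's scheme give opposite dyes for every array. The direction was set by the array ratios of ND101/W23 over W23 that the study lists for its qRT-PCR panel, which correlated with the deposited values at 0.986 (74 of 74 of the same sign). For A619 the same values correlated at 0.762 (55 of 74), and its direction, taken from the shared W23 samples and processing, is likely. Values with the sign of A619 turned were added after seeing the data. Probe numbers minus 3 gave the row numbers, and 22 of 23 EST accessions present in both sources then matched. Of the 40 members, 1 has a gene in the platform's gene table.

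Ratios were tested in limma 3.58.1 (R 4.3.3), with 1 model for each tissue on its 6 arrays and a mean for each line, and p-values adjusted by Benjamini-Hochberg over all probes. A call against W23 needs an adjusted p under 0.05 and 3 ratios of the same sign. Samples of a group are called biological replicates in the labels. On data simulated for A619 against W23, limma called 62 of 100 probes with a 2-fold and 90 of 100 with a 4-fold difference in leaf (7873 probes, 8 false calls). With a 2-fold difference it called 65 of 100 in anthers of 1 mm, 57 in anthers of 1.5 mm and 66 in pollen. The simulated noise was normal and independent between arrays, without shared W23 samples. Few of the simulated probes differed, whereas 41.9% of all probes were called in A619 leaf. The shares called in the simulation may therefore not hold for the real arrays. Precision is limited by the small number of arrays, and ratios hold no signal over background.

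Same-numbered arrays of both lines share a W23 sample according to the study's scheme. Their deviations from the group means correlated between lines at 0.198 to 0.645 (12 pairs), beside -0.571 to 0.227 for different numbers (24 pairs). A turned direction of A619 would make the first range negative. The numbers thus pair the arrays, and the replicate block is given where it changes a call. For a line against W23 the block was a common correlation between same-numbered arrays, estimated over all probes. For the difference between the lines it was a term for each replicate (the paired fit). Other alternatives were centring, scaling, probe filters, fits on 3 or all 24 arrays, a dye coefficient, Rank Products, the test of the study (100 permutations), no sign rule and leaving out each replicate. The plots were drawn with matplotlib 3.10.9 from tables made in pandas 2.3.3 (numpy 2.4.6, Python 3.11.15).

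The members, role groups and lists were chosen with earlier results of these data known. Ratios on each array are given for members called in any comparison and for the highest and lowest leaf mean of each role group in each line, others by ranges. Other members are named with values where they show a spread shared by both lines. Intensities, detection calls and the second platform were not analysed.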

Additional observations from a re-analysis of the deposited data

Results flagged for a closer look

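The effect against W23 differed between A619 and ND101/W23 by limma for 11 results. In juvenile leaf the mean log2 ratio of A619 minus that of ND101/W23 was 1.51 for the calcium-dependent protein kinase (TC273592), 1.13 for v-SNARE 13 (TC249924), 0.94 for choline kinase (TC261629) and 0.75 for the serine/threonine kinase-like transcript (TC264065). It was -1.42 for secretory acid phosphatase (TC273333), -1.26 for the At5g56460-like kinase (TC255723), -1.19 for the small GTP-binding protein (TC247949) and -1.12 for cytosolic fructose-1,6-bisphosphatase (TC249796). In anthers it was 3.37 at 1 mm and 2.87 at 1.5 mm for v-SNARE 13, and -1.02 at 1.5 mm for the small GTP-binding protein.

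In 8 further cases a transcript called in leaf had all 3 ratios of 1 sign in leaf and all 3 of the opposite sign in another tissue of the same line, and this difference was not tested. How often all probes called in leaf do so was not counted, so the 8 cases have no share beside them. The study lists these transcripts as undetected in anthers and pollen, where the ratios may not stand above background. In A619, leaf minus 1.5 mm anther was 2.01 for the calcium-dependent protein kinase, -0.68 for thiamin pyrophosphokinase (TC251803), -1.60 for adenylate kinase (TC271238), -1.24 for P5CS (TC260797) and -1.58 for cytosolic fructose-1,6-bisphosphatase. For secretory acid phosphatase of A619, leaf minus 1 mm anther was -0.91 and leaf minus mature pollen was -0.84. In ND101/W23, leaf minus 1 mm anther was 1.10 for choline kinase.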

How the results depend on the processing

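Of the 37 called values of single transcripts, all kept their direction under every one of the 12 alternatives other than a turned A619 in which they were computed. For the 26 calls against W23 the direction was largely fixed in advance, because all 3 ratios already had the same sign. The replicate block, the fits on 3 and on all 24 arrays and Rank Products also leave the mean ratio as it is. All 37 remained called with median-centred arrays, with probes of all 24 values and without the sign rule, and none was lost with a dye coefficient. Dropping the sign rule can only add calls, so it could lose none. Scaling arrays to the same MAD lost 9 calls, the fits on 3 arrays and on all 24 lost 5 each, and Rank Products lost 23 of the 26 against W23. The replicate block changed the call of v-SNARE 13 in ND101/W23 leaf, left 0 lower calls there, added the ABC1 kinase-like transcript in 1.5 mm anthers of A619, and gave, with the additions named in the results, 14 differences between the lines in leaf (9 lower) and 5 in 1.5 mm anthers; it changed no other call. In A619 leaf, MAD scaling gave 5 lower calls, and Rank Products gave 0 calls, 0 higher and 0 lower. In ND101/W23 leaf, MAD scaling gave 11 calls (8 higher, 3 lower), a dye coefficient 8 (7 higher), the fit on all 24 arrays 8 (2 lower), the fit on 3 arrays 3 (2 higher), and Rank Products 1 (1 higher, 0 lower). Between the lines in leaf, MAD scaling gave 2 higher, a dye coefficient 8 lower, and the fit on all 24 arrays 2 higher and 7 lower. In 1 mm anthers of A619, MAD scaling and the fit on 3 arrays gave 1 call each. In 1 mm anthers of ND101/W23 there was 1 call with MAD scaling, with 3 arrays and with Rank Products, and 4 with all 24 arrays. In 1.5 mm anthers, Rank Products gave 0 calls in A619, the fit on all 24 arrays gave 4 in ND101/W23, and MAD scaling left 1 difference between the lines. In pollen of ND101/W23 the fit on all 24 arrays gave 1 call. With the sign of A619 turned, an alternative added after seeing the data, its leaf calls were 8 higher and 4 lower and 14 transcripts differed between the lines (7 higher, 7 lower). The cause of the other changes was not tested. Shares of all probes were counted for the main fits, for Rank Products and for the replicate block between the lines in leaf and 1.5 mm anthers. For the other alternatives, and with a replicate left out, they were not counted. Whether the 37 moved there apart from all probes cannot be said.

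Leaving out each replicate in turn gave 7 to 15 calls in A619 leaf (4 to 5 higher, 2 to 10 lower), 0 to 1 in ND101/W23 leaf (0 to 1 higher, 0 lower) and 0 to 8 between the lines (0 to 2 higher, 0 to 6 lower). In 1 mm anthers it gave 0 in A619, 0 to 1 in ND101/W23 and 0 to 1 between the lines, and in 1.5 mm anthers 0 to 7, 0 to 2 and 0 to 2. In pollen it gave 0 throughout. The median leaf ratio of the 37 was -0.11 in A619 with MAD scaling, -0.15 without replicate 2 and -0.10 without replicate 3. In ND101/W23 leaf it was -0.03 without replicate 1 and 0.11 without replicate 3. With 2 arrays a line the test has few degrees of freedom, so a lost call there also reflects fewer samples. Ratios hold no signal over background, so how dim a probe was cannot be said.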
